A study of Homo sapiens with 72 samples.

Results

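RNA immunoprecipitation with sequencing (RIP-seq) of G3BP1 gave 3 immunoprecipitate (IP) libraries and 3 input libraries, 6 of the 72 libraries of the study. The members are every Ensembl gene row of the authors' comparison of IP with input, 61541 rows in all, after the summary lines of the read counter were removed. Of these genes 30768 had reads, 22856 had an adjusted p-value and 10295 of the latter also had a base mean, the mean of normalised reads over the 6 libraries, of at least 100. Both groups came from Flp-In T-REx 293 cells, an embryonic kidney line that stably carries FLAG-tagged G3BP1, and in both the cells were treated with tetracycline at 1 ug/mL for 24 h. The groups therefore share the transgene and its induction and differ by the immunoprecipitation. No library from a mock or control immunoprecipitation and no cells without the transgene are analysed here, so binding to the beads or the antibody cannot be told apart from binding to G3BP1. Nothing in the labels ties the libraries to separate cultures, and the p-values measure the spread between these libraries, which may be technical. The study as a whole profiled RNA-protein contacts with an inducible RNA-editing enzyme, and RIP-seq is a further readout of the RNA that comes with G3BP1.

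G3BP1 is an RNA-binding protein of the cytoplasm. Under stress that stops the start of translation it condenses, with its paralog G3BP2 and the mRNA released from ribosomes, into stress granules, and its NTF2-like domain joins it to itself and to the partners CAPRIN1 and USP10. In unstressed cells it is spread through the cytoplasm and meets mRNA there. RIP-seq counts the RNA that comes down with the tagged protein, and the ratio to input says how much more or less of the IP library a transcript takes than of the input library. It is a relative measure, since the reads of each library are shared out among all its transcripts.

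The embryonic kidney identity of the cells was checked with 7 markers. VIM, KRT8, KRT18, LIN28B and NEFL had base means of 1078 to 11619 normalised reads, PAX2 had 45.8 and NEFM 4.87. Of 11 markers of blood, liver, bone, muscle and endothelium, 5 (IBSP, PTPRC, ALB, CDH5 and COL1A2) had no read, and the highest were RUNX2 at 69 and COL1A1 at 26.4. Reads assigned to genes averaged 12.2 M (mega) normalised reads per library, and the size factors of the libraries, worked out from the table, ran from 0.784 to 1.21. In the median gene with a base mean of at least 100 the standard error of the log2 fold change was 0.15.

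Most tested genes differed between IP and input. By the authors' DESeq2 test 12823 of 22856 genes had an adjusted p under 0.05 (56.1%), 5639 higher in IP (24.7%) and 7184 lower (31.4%). Among genes of base mean 100 or more the background was 44.4% higher and 38.6% lower, and these shares are the ones to set beside most of the gene groups below. The decrease reached further than the increase. Over all tested genes, a log2 fold change of at least 2 was called in 437 genes and of -2 or less in 3396. A change of at least 3 was called in 11 genes, against 1235 at -3 or less. At base means of at least 100 the middle 90% of genes lay between -2.73 and 1.76, with a median of 0.12. That median is the zero point to which the fold changes can be set, and shifting by it left 39.7% of all calls on the higher side in place of 44%. Genes called higher took 75.1% of the normalised gene reads in IP and 39.8% in input, and genes called lower took 12.5% and 44.1%.

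**Figure D1:**
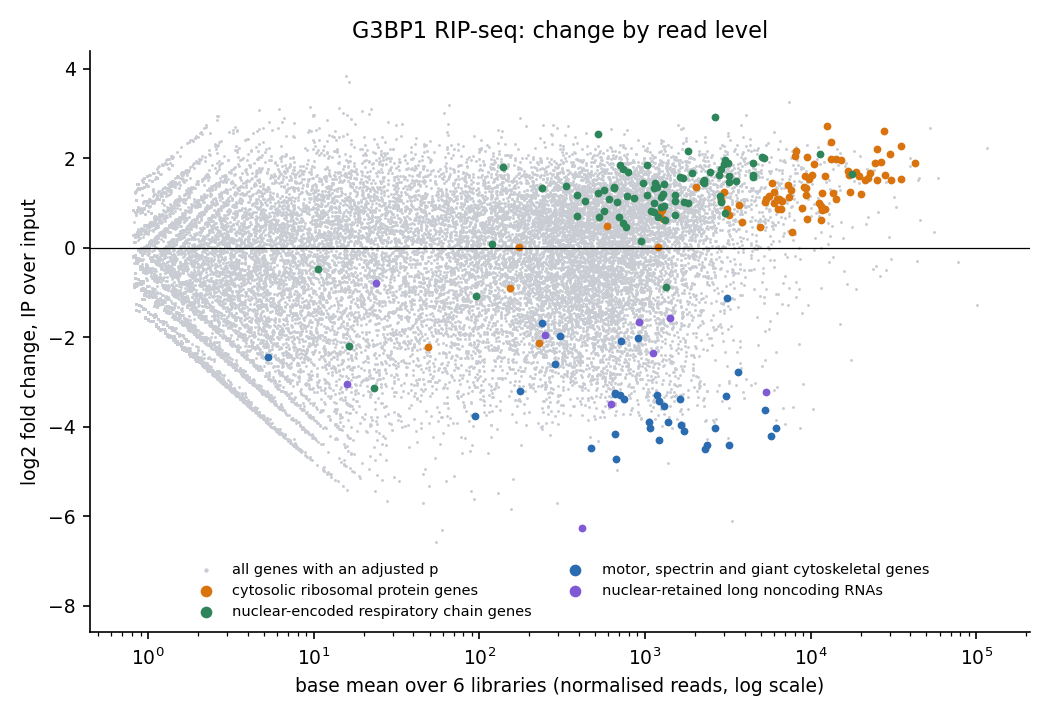
Log2 fold change of IP over input (vertical axis) against the base mean over the 6 libraries in normalised reads (horizontal axis, log scale), 1 grey point per gene with an adjusted p and 4 gene lists in colour. Cytosolic ribosomal protein genes and respiratory chain genes lie mostly above 0, and genes of motor proteins, spectrins and giant cytoskeletal proteins lie below it.

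Among called genes with a symbol and a base mean of at least 100, the transcripts with the highest fold changes encode proteins of several compartments. PRDX4 (ENSG00000123131; GRCh38.p14 chrX:23667493-23686397), a peroxiredoxin of the endoplasmic reticulum (ER), averaged 13473 normalised reads in IP and 1397 in input, and its log2 fold change in the authors' deposited table was 3.25 (SE 0.13, adjusted p 3.6e-146). NAXE, which repairs hydrated NADH and NADPH, followed at 2.97 (SE 0.16) and NDUFB7, a subunit of respiratory complex I, at 2.91 (SE 0.16) in the authors' deposited table. TUBA1A, an alpha-tubulin, ATP23, a mitochondrial protease, AP1S1, the small sigma subunit of the AP-1 clathrin adaptor, and ALKBH7, a mitochondrial dioxygenase, all lay between 2.72 and 2.74 in the authors' deposited table. RPS3A, a protein of the small ribosomal subunit, rose from 3278 to 21852 normalised reads (2.72, SE 0.13, in the authors' deposited table). GPM6A, a neuronal membrane glycoprotein with a locus of 369 kb, was also in the top group at 2.74 in the authors' deposited table, so a long gene can be high as well. The pseudogene RPS3AP6 at 2.89 in the authors' deposited table is near-identical to RPS3A and its reads may be those of RPS3A.

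At the other end, again at base means of at least 100, stood nuclear noncoding RNA, the RNA of the signal recognition particle and transcripts of giant proteins. KCNQ1OT1 (chr11:2608328-2699994), a long noncoding RNA that stays on chromatin in the imprinted KCNQ1 domain, averaged 9.62 normalised reads in IP and 822 in input (log2 fold change -6.27, SE 0.28, adjusted p 1.02e-108, from the authors' deposited table). RN7SL1, which encodes the RNA of the signal recognition particle, averaged 93.1 and 6605 reads (-6.12, SE 0.13, in the authors' deposited table). The noncoding RNA genes FAM106A at -5.85, LINC00342 at -5.70 and LINC02226 at -5.18 in the authors' deposited table were close behind. MUC16, a very large cell surface mucin, was at -4.97, SYNE2, a giant protein of the nuclear envelope, at -4.81 and AHNAK, a giant scaffold protein, at -4.72 in the authors' deposited table. The remaining genes of the 10 lowest named at that base mean were CIROP at -5.48 and the pseudogene SNX18P3 at -4.59 in the authors' deposited table. KCNQ1OT1 lies inside the locus of KCNQ1 and CIROP overlaps C14orf119, and whether the counting used the strand is not given in the sources used here.

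**Figure D2:**
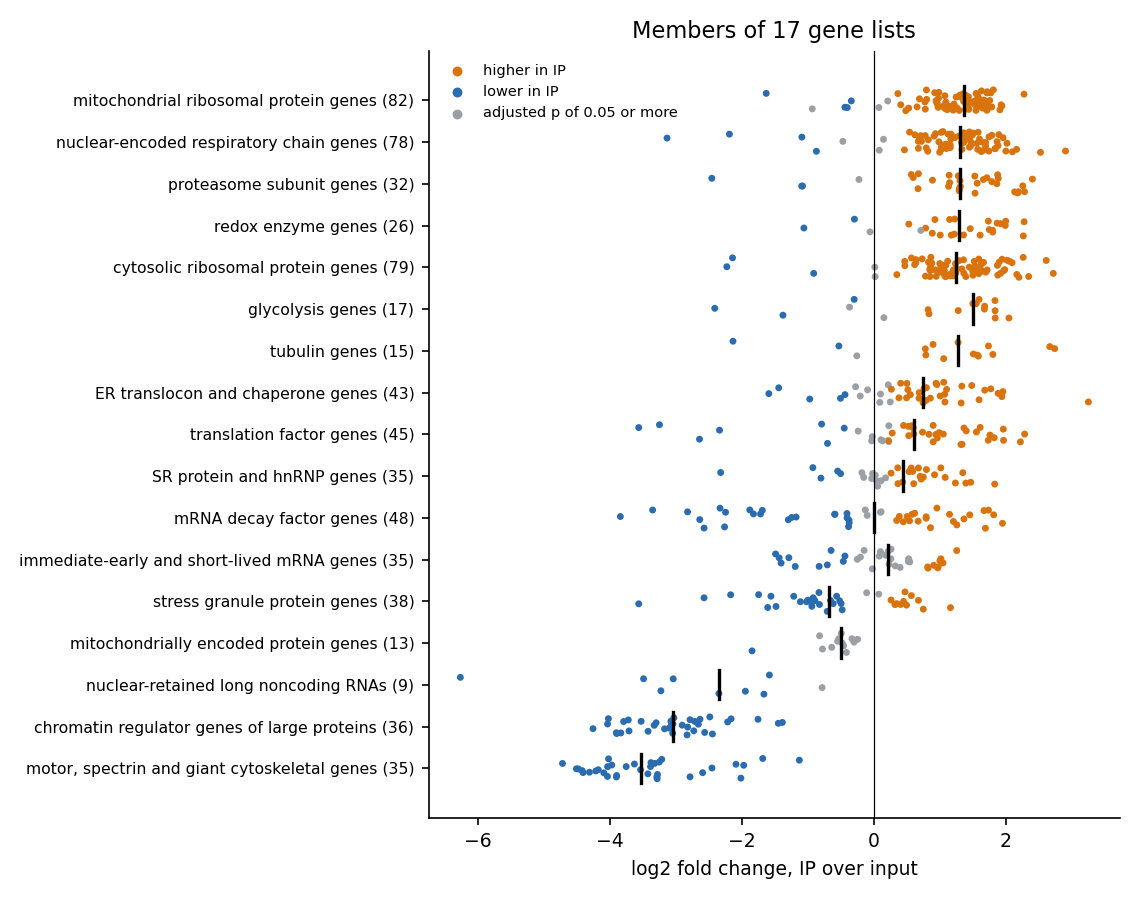
Log2 fold change of IP over input for each tested member of 17 gene lists, with the number of members in brackets. Orange points were called higher in IP, blue points lower, grey points had an adjusted p of 0.05 or more, and the black bars are medians. The lists of ribosomal proteins, respiratory chain and proteasome sit to the right of 0 and those of large chromatin regulators and giant cytoskeletal proteins wholly to the left.

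G3BP1 mRNA and the mRNAs of its protein partners were examined first among the named groups. G3BP1 (ENSG00000145907) averaged 15583 normalised reads in IP and 11198 in input, which is 0.47 on the log2 scale (SE 0.13, adjusted p 4.44e-04, from the authors' deposited table), and reads of the endogenous gene and of the transgene are counted together. G3BP2 was at 0.26 (SE 0.11, adjusted p 0.0325, from the authors' deposited table), a call that was lost once the fold changes were centred on their median (adjusted p 0.271). CAPRIN1 at -0.48, USP10 at -0.89, UBAP2L at -0.56 and NUFIP2 at -1.61 were called lower in the authors' deposited table. In a set of 13 genes that holds G3BP1, G3BP2 and protein partners, drawn up after the values had been seen, 10 were called lower. The 3 called higher were G3BP1, G3BP2 and FXR1, and the median of the set was -0.82.

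Of the 38 genes on a list of stress granule proteins, 11 were called higher, 25 lower and 2 (TIA1 and TIAL1) neither, with a median of -0.68 against 0.12 for all genes of base mean 100 or more. The lowest were EIF4G1, the scaffold of the cap-binding complex, at -3.56, the helicase UPF1 at -2.57 and LARP1, which binds the 5′ ends of ribosomal protein mRNAs, at -2.17 in the authors' deposited table. EIF4G1 fell from 14474 normalised reads in input to 1205 in IP. The highest were the cold shock protein YBX3 at 1.16 and ELAVL1, which binds AU-rich elements, at 0.75 in the authors' deposited table. PABPC1, the poly(A)-binding protein, was at -1.11, and the fragile X family split, with FMR1 at -0.70, FXR2 at -0.82 and FXR1 at 0.35 in the authors' deposited table. The call of FXR1 was lost after centring (adjusted p 0.131). TAF15 at 0.50, HNRNPA1 at 0.68 and YBX1 at 0.45, which encode RNA-binding proteins with low-complexity domains, were called higher in the authors' deposited table.

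Transcripts reported in the literature to be bound by G3BP1 make a list of 7, of which 5 were called higher and 1 lower. ARL2BP, a partner of the small GTPase ARL2, had the highest value at 1.68 (SE 0.10), followed by CDK7 at 1.34, CDK9 at 1.10 and MYC at 1.05 in the authors' deposited table. PMP22, a myelin protein gene, was at 0.69, MAPT, which encodes tau, was at -0.01 (adjusted p 0.96) and CTNNB1, which encodes beta-catenin, was called lower at -1.12 (SE 0.19) in the authors' deposited table. Transcripts often used to mark stress granules under arsenite were lower in these unstressed cells. All 6 tested members of that list were called lower, with a median of -2.56. AHNAK averaged 41.7 normalised reads in IP and 1293 in input, and DYNC1H1, the dynein heavy chain, 570 and 10919 (-4.21, SE 0.19, in the authors' deposited table). CDK6 was at -2.54, ZNF704 at -2.57, TFRC, the transferrin receptor, at -1.84 and the noncoding RNA NORAD at -0.50 in the authors' deposited table.

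Messenger RNAs of the ribosome were mostly on the higher side. Of 79 cytosolic ribosomal protein genes 74 were called higher and 3 lower, with a median of 1.24. Together they took 10.3% of the normalised gene reads in IP and 4.41% in input. RPS3A at 2.72, RPL18 at 2.62 and RPS9 at 2.35 were the highest in the authors' deposited table, and RPL18 rose from 7666 to 47384 normalised reads. Among the lower calls were RPS10 at -2.23 and RPL36A at -2.14 in the authors' deposited table. They had base means of 49 and 229 normalised reads, and RPL18 one of 27525. RPS10 and RPL36A lie within the annotated readthrough genes RPS10-NUDT3 and RPL36A-HNRNPH2, as RPL17, which was not called (0.02, authors' deposited table), lies within RPL17-C18orf32. Reads shared with a readthrough gene cannot be assigned to 1 gene, and reads that the counter could not assign were themselves higher in IP, so the values of these genes are uncertain.

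Mitochondrial ribosomal protein genes gave the same picture, with 75 of 82 called higher, 4 lower and a median of 1.37. MRPL17 was at 2.28, MRPL43 at 1.94 and MRPS34 at 1.93 in the authors' deposited table. The lower calls were MRPL38 at -1.63, PTCD3 at -0.44, MRPL42 at -0.40 and MRPS25 at -0.34 in the authors' deposited table. The nuclear genes of the respiratory chain followed, with 71 of 78 called higher, 4 lower and a median of 1.31. NDUFB7 and NDUFB5 (2.53, SE 0.14, in the authors' deposited table), small accessory subunits of complex I, were the highest, and NDUFS1, its largest subunit, was lowest among members with a base mean of at least 100 at -0.87 (SE 0.13) in the authors' deposited table. The other lower calls had base means under 100 and lay below NDUFS1. They were NDUFA13 at -3.13, NDUFV2, whose locus overlaps NDUFV2-AS1, at -2.19 and SDHA at -1.09 in the authors' deposited table. The 13 protein genes of mitochondrial DNA, which are transcribed and translated inside the organelle, differed from their nuclear partners. None was called higher, 1 was called lower, and their median was -0.49. MT-ND6, the only one of them encoded on the light strand, was at -1.84 (SE 0.11, adjusted p 9.39e-64, from the authors' deposited table). The other 12 ranged from -0.82 for MT-ND2 to -0.24 for MT-CO3 in the authors' deposited table, with standard errors of 0.37 to 0.53 against a median of 0.15 over all genes of base mean 100 or more. At that spread a change of this size was not detectable.

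The start of the transcript was compared because cytosolic ribosomal protein mRNAs begin with a 5′ terminal oligopyrimidine (TOP) tract, a C at the first base followed by pyrimidines, which LARP1 binds. The sequences below run 5′ to 3′ from 5 bases before the annotated RefSeq start (GRCh38.p14) to 20 bases from it, and capitals mark the first 5 transcribed bases where they are C followed by 4 pyrimidines. They show high and low genes with a tract, then high and low genes without one.
RPS3A (chr4:151099623-151099647, plus strand): ttccgCCCTTttggctctctgacca
RPL18 (chr19:48619159-48619183, minus strand): gttctCTCTTtccggacctggccga
RPS9 (chr19:54200853-54200877, plus strand): cgcgcCTCTTtctcagtgaccgggt
EEF1A1 (chr6:73521013-73521037, minus strand): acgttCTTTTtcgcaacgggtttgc
EEF2 (chr19:3985444-3985468, minus strand): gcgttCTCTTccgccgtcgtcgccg
RPL36A (chrX:101391006-101391030, plus strand): ggtttCTTTCtttccgcgccgatag
PRDX4 (chrX:23667488-23667512, plus strand): gcgtcgtgcacgcggttgtagctgc
NDUFB7 (chr19:14572047-14572071, minus strand): gaggggtcagtggttccgggtagga
AHNAK (chr11:62545807-62545831, minus strand): gccccagagcctggcccggcgccag
DYNC1H1 (chr14:101964568-101964592, plus strand): tcctcagtctgcggtgggctagcgg

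The pattern, read on the transcribed strand only, stood at 880 of 22114 starts of genes with a single listed start (3.98%) and in 40 of 52 such ribosomal protein genes (76.9%). Among 5817 protein-coding genes with a single start and a base mean of at least 100, it was present in 7.62% of the 1404 genes higher in IP by at least 1 on the log2 scale and in 4.66% of the 1415 genes lower by at least 1. Without ribosomal protein genes the shares were 5.71% and 4.6%. Outside the ribosomal protein genes, 308 genes with the pattern had a median log2 fold change of 0.36, and 5457 without it had 0.13. Among those with a locus of up to 10 kb the medians were 0.90 with the pattern and 1.00 without it, from 10 to 50 kb 0.53 and 0.30, and over 50 kb -0.91 and -0.86. Ribosomal protein genes with the pattern had a median of 1.15 and the 12 without it 1.46. Of the 40 with it 38 were called higher and 1 lower, and of the 12 without it 11 were called higher. The 1 lower was RPL36A at -2.14 in the authors' deposited table, a value that is uncertain as said above. Outside the ribosomal protein genes 159 of the 308 genes with the pattern were called higher and 100 lower. Of the 5457 without it 2458 were called higher, PRDX4 at 3.25 in the authors' deposited table among those tested, and 2080 lower. A match is a description of these letters and not of a bound site.

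Translation factors were higher as a group but divided by subunit. Of 45 tested genes 31 were called higher and 7 lower, with a median of 0.61. EEF1A1, which brings aminoacyl-tRNA to the ribosome, averaged 191701 normalised reads in IP and 40450 in input (2.22, SE 0.18, in the authors' deposited table), and its many pseudogenes make its own count uncertain. EEF1B2, its exchange factor, was at 1.97, EIF5A at 1.56 and EEF2, the translocase, at 0.61 in the authors' deposited table. All 7 lower genes encode initiation factors, EIF4G1, EIF4A1, EIF3A, EIF4G3, EIF3B, EIF3C and EIF5B. Base means were low for EIF4A1 (85.4) and EIF3C (85.2).

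Members of 1 complex often lay far apart. The subunits of these complexes were listed after the values had been seen. In eIF3, the large scaffold that holds the small ribosomal subunit for initiation, EIF3I at 2.29, EIF3K at 1.97, EIF3L at 1.83 and EIF3F at 1.61 were called higher in the authors' deposited table, while EIF3A, the largest subunit, was at -2.64, EIF3B at -0.79 and EIF3C at -0.70. EIF3I averaged 15810 normalised reads in IP and 3217 in input and EIF3A 1381 and 8717. EIF3C had a base mean of 85.2, while those of the other subunits ran from 2009 (EIF3J) to 9513 (EIF3I), so its value is less certain. In the cap-binding complex eIF4F, EIF4E, the cap-binding subunit, was at 0.97 and the helicase EIF4A2 at 0.90, while the scaffolds EIF4G1 and EIF4G3 were at -3.56 and -2.34 in the authors' deposited table. EIF4G2, a shorter relative of the scaffolds, was at 0.22 in the authors' deposited table (adjusted p 0.02), and 0.318 after centring. EIF4A1 at -3.25 in the authors' deposited table had a base mean of 85.4 and lies within the readthrough gene SENP3-EIF4A1, so its value is uncertain.

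**Figure D3:**
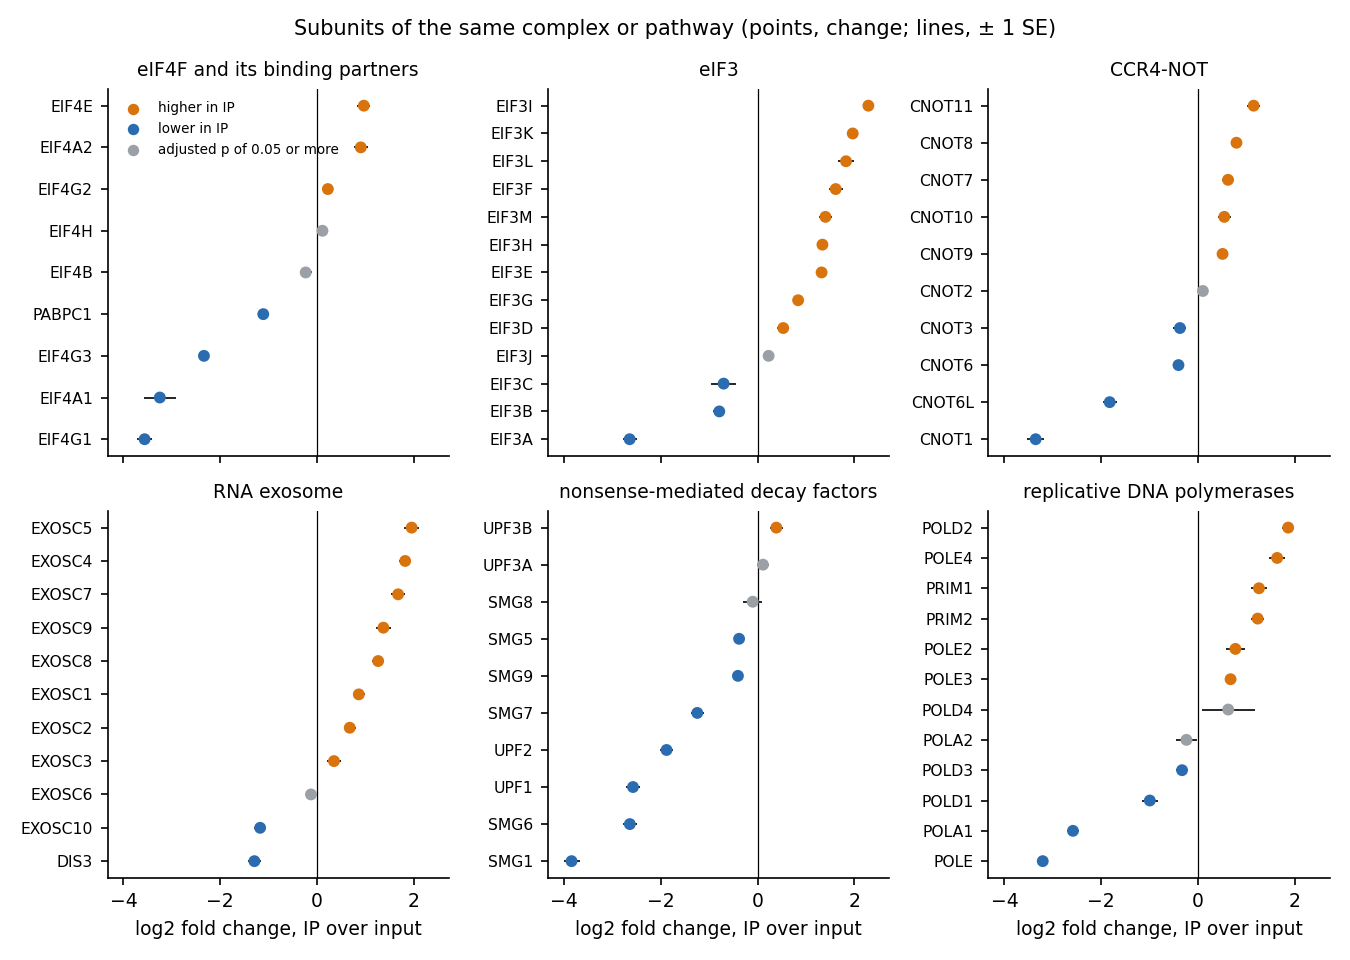
Log2 fold change of IP over input (horizontal axis) for the subunits or factors of 6 complexes and pathways, ordered from high to low, with lines for 1 standard error either side. Each panel holds members on both sides of 0, from 2.29 for EIF3I to -2.64 for EIF3A in eIF3, both from the authors' deposited table.

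The mRNA decay genes divided much as genes of their read level did. Of 48 genes 22 were called higher and 22 lower, with a median of 0.00. Among all genes of base mean 100 or more 44.4% were higher and 38.6% lower. Among the subunits of CCR4-NOT, the main deadenylase, CNOT1, its scaffold, fell from 7175 to 688 normalised reads (-3.35, SE 0.17, in the authors' deposited table), while CNOT11 was at 1.15. Its nuclease subunits divided too, with CNOT7 at 0.62 and CNOT8 at 0.79 called higher and CNOT6 at -0.40 and CNOT6L at -1.82 called lower in the authors' deposited table. Of the 11 genes of the RNA exosome 8 were called higher, among them the ring subunits EXOSC5 at 1.95 and EXOSC4 at 1.82, and both nucleases on the list, DIS3 at -1.30 and EXOSC10 at -1.18, were called lower in the authors' deposited table. Nonsense-mediated decay factors were on the lower side, 7 of 10 called, led by the kinase SMG1 at -3.84 and the endonuclease SMG6 at -2.64 in the authors' deposited table. UPF3B at 0.39 was their 1 higher call in the authors' deposited table, and it was lost after centring (adjusted p 0.0655). XRN1, the cytoplasmic 5′ to 3′ exonuclease, was at -2.82 in the authors' deposited table.

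DNA replication and mitosis genes also held members on both sides, beside 44.4% higher and 38.6% lower among all genes of base mean 100 or more. Of 45 replication genes 29 were called higher and 12 lower. The catalytic subunits of the replicative polymerases, POLE at -3.21, POLA1 at -2.58 and POLD1 at -0.995, were called lower in the authors' deposited table, and the accessory subunits POLD2 at 1.86 and POLE4 at 1.64 and the primase subunits PRIM1 at 1.26 and PRIM2 at 1.23 higher. The accessory subunit gene POLD3 was called lower at -0.33, and POLA2 at -0.24 and POLD4 at 0.62 were not called in the authors' deposited table. In the clamp loader RFC1, the large subunit, was at -1.53 and RFC2 to RFC5 between 0.63 and 2.16 in the authors' deposited table. PRIM2, on the higher side, has a locus of 425 kb, and POLD1, on the lower, one of 33.7 kb. Among 42 mitotic genes 21 were called higher and 18 lower. MKI67, which coats mitotic chromosomes, fell from 11631 to 794 normalised reads (-3.86, SE 0.11) and the spindle gene ASPM was at -3.09, while CENPA, the histone of the centromere, was at 1.97 and the checkpoint protein gene MAD2L1 at 1.71 in the authors' deposited table.

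Metabolic and protein folding genes were mostly higher. Of 17 glycolysis genes 12 were called higher and 3 lower, with a median of 1.5. The step that opens the pathway was on the lower side, with HK2 at -2.41 and HK1 at -1.38, and TPI1 at 2.05, PKM at 1.84, LDHA at 1.84 and the enolase gene ENO1 at 1.55 were called higher in the authors' deposited table. ENO2, the neuronal enolase gene, was the third lower call at -0.30 (adjusted p 0.0331, from the authors' deposited table). GAPDH averaged 65869 normalised reads in IP and 23187 in input (1.5, SE 0.08, in the authors' deposited table). Among 24 cholesterol synthesis genes 16 were called higher and 5 lower, with ACAT2 at 2.15 and PMVK at 1.83 among the higher and LSS, which closes the sterol rings, at -1.74 among the lower in the authors' deposited table. Redox enzyme genes had 22 of 26 called higher and 2 lower, with GSTP1 at 2.28, GPX1 at 2.27 and GLRX5 at 2.00 at the top and GCLC and GCLM, the subunits of the enzyme that opens glutathione synthesis, at -1.06 and -0.29 in the authors' deposited table. The call of GCLM (adjusted p 0.0373) was lost without the filter on low counts (0.0503). Proteasome genes had 28 of 32 called higher and 3 lower, with PSMB6 at 2.41 and PSMC1 at 2.29 in the authors' deposited table. The 2 largest subunits of the regulatory particle, PSMD1 and PSMD2, were called lower at -1.09 and -1.08 in the authors' deposited table.

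ER translocon and chaperone genes, whose proteins are made on membrane-bound ribosomes, had 31 of 43 called higher and 5 lower, with a median of 0.75. PRDX4 led them, followed by ERP29 at 1.96 and DDOST, a subunit of the oligosaccharyltransferase, at 1.94, while the chaperone HYOU1 was at -1.44 and DNAJC3 at -0.97 in the authors' deposited table. Aminoacyl-tRNA synthetase genes had 10 of 20 called higher and 6 lower, beside 44.4% and 38.6% of all genes of base mean 100 or more. EPRS1, the fused glutamyl-prolyl synthetase, was at -3.14, AARS1 at -1.81 and VARS1 at -1.50, against FARSA at 1.27 and YARS1 at 0.75 in the authors' deposited table. Tubulin genes had 12 of 15 called higher, TUBA1A at 2.74 and TUBA1B at 2.67 in the authors' deposited table, and reads of these near-identical copies are hard to separate. SR protein and hnRNP genes had 21 of 35 called higher and 5 lower, from HNRNPC at 1.83 and HNRNPF at 1.47 to HNRNPUL2 at -2.32 and HNRNPU at -0.92 in the authors' deposited table.

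Immediate-early and short-lived mRNAs had no common direction. Of 35 tested genes 9 were called higher, 10 lower and 16 neither, with a median of 0.22. The background over all tested genes was 24.7% higher and 31.4% lower, and 25 of the 35 had a base mean of at least 100. MYC at 1.05, DUSP5 at 1.02 and ID3 at 1.00 were the highest with a base mean of at least 100, and FOSL2 at -1.43 and FOSL1 at -1.29 the lowest, in the authors' deposited table. Replication-dependent histone genes, whose mRNAs mostly lack a poly(A) tail while these libraries were made by poly(A) selection, were sparse. Of 68 genes 44 had an adjusted p and 4 a base mean of at least 100, and 4 were called higher and 5 lower. The polyadenylated replacement histone genes had 7 of 9 called higher, led by H2AZ1 at 1.54, MACROH2A2 at 1.31 and H3-3B at 1.30 in the authors' deposited table. H2AZ2 at -0.22 in the authors' deposited table was not called.

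Lists of genes known for large proteins, drawn up with earlier results of these data known, lay on the lower side. All 36 chromatin regulators on such a list were called lower, with a median of -3.05, and all 35 genes of motor proteins, spectrins and giant cytoskeletal proteins were called lower with a median of -3.53. The background of lower calls at base means of at least 100 was 38.6%. KMT2D, a histone methyltransferase, fell from 6032 to 310 normalised reads (-4.26, SE 0.14) and PRKDC, the DNA-dependent protein kinase, from 16302 to 861 (-4.04, SE 0.41) in the authors' deposited table. SPTBN1, a beta-spectrin, fell from 4404 to 191 (-4.51, SE 0.13) in the authors' deposited table. Among the least changed members were SETD1A at -1.45 and the kinesin gene KIF5B at -1.13 in the authors' deposited table. Cadherin and protocadherin genes had 24 of 50 called lower and none higher. FAT1 was at -3.98 and FAT3 at -3.75, and CDH24 at -0.04 and CDH23 at 0.11 were not called in the authors' deposited table. ZNF zinc-finger genes, mostly transcription repressors with arrays of zinc fingers, had 55 of 440 called higher and 236 lower with a median of -0.66, from ZNF221 at -4.0 and ZNF106 at -3.30 to ZNF428 at 1.73 and ZNF32 at 2.05 in the authors' deposited table.

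Length was then examined over all protein-coding genes. The RefSeq table gives the genomic span of a locus, introns included, and not the length of the mRNA. Over 9844 protein-coding genes of base mean 100 or more, Spearman's rho between locus length and fold change was -0.52, a description across genes of the same 6 libraries. In 121 genes with a locus of up to 2 kb the median was 1.31, with 93.4% called higher and 1.65% lower. In 117 genes over 500 kb it was -1.74, with 12% called higher and 75.2% lower. The bins between fell in order, through 0.84 at 5 to 10 kb (1008 genes), 0.19 at 20 to 50 kb (2785 genes) and -1.14 at 100 to 200 kb (1204 genes). Exceptions were present at both ends. Of 743 genes over 200 kb, 54 were called higher by at least 1, headed by GPM6A, the DNA repair gene MGMT at 2.19, the lysosomal lipase gene LIPA at 2.109 and the retinoic acid receptor gene RARB at 2.01 in the authors' deposited table. Of 734 genes of up to 5 kb, 12 were called lower by at least 1, headed by the hormone gene AMH at -3.01, the homeobox gene HOXD9 at -2.94, FAM229A at -2.66, the transcription factor gene CEBPE at -2.58 and the homeobox gene HOXD10 at -2.25 in the authors' deposited table. These exceptions were picked after their values had been seen.

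**Figure D4:**
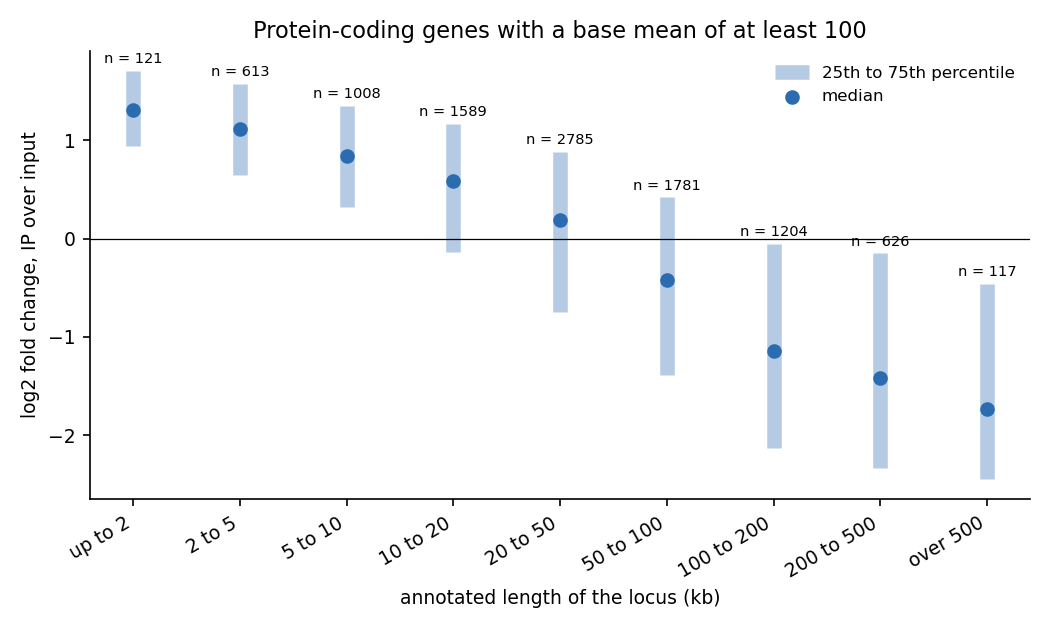
Log2 fold change of IP over input (vertical axis) by the annotated length of the locus in kb (horizontal axis, 9 bins) for protein-coding genes of base mean 100 or more, with n genes per bin. Points are medians and bars run from the 25th to the 75th percentile. The median is 1.31 in the shortest bin and -1.74 in the longest.

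Long noncoding RNAs were compared by where they are known to reside. Of 9 tested nuclear-retained RNAs 8 were called lower and none higher, with a median of -2.35. Besides KCNQ1OT1, FTX from the X-inactivation centre was at -3.49, MALAT1, which resides in nuclear speckles, at -3.23 with a wide standard error of 0.60, MIAT at -3.04 and NEAT1, the scaffold of paraspeckles, at -2.35 in the authors' deposited table. MIAT, with a base mean of only 15.9, had a standard error of 0.61. PVT1 was at -1.95, HCG18 at -1.66, JPX at -1.58 and LINC-PINT at -0.78 (adjusted p 0.15, from the authors' deposited table). Reads that fell in no annotated gene went the same way, from 3.76 M normalised reads per library in input to 0.368 M in IP (-3.33, SE 0.14, adjusted p 5.98e-123, from the authors' deposited table), and the part of nuclear RNA in either value was not tested.

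Among 12 RNAs with a known place in the cytoplasm 5 were called higher and 6 lower. DANCR was the highest at 2.19 (SE 0.13), followed by the snoRNA host RNAs SNHG8 at 1.12 and SNHG6 at 1.02 and by EPB41L4A-AS1 at 0.45 and GAS5 at 0.30 in the authors' deposited table. The calls of EPB41L4A-AS1 and GAS5 were lost after centring, with adjusted p of 0.0769 and 0.158. TUG1 was the lowest at -2.40 (SE 0.17), with SNHG5 at -1.72, CYTOR at -1.56, OIP5-AS1 at -1.13, ZFAS1 at -0.59 and NORAD at -0.50 in the authors' deposited table. SNHG1 was not called, at -0.13 in the authors' deposited table. Small RNAs made by RNA polymerase III have no poly(A) tail, and of the 10 listed RN7SL1 and RN7SL3 alone could be tested. Both were called lower.

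Annotated classes of gene gave a wider view of noncoding RNA. At base means of 100 or more, 196 long noncoding RNA genes had a median of -0.14, with 35.7% called higher and 43.9% lower, against a median of 0.13 for 9844 protein-coding genes. Besides DANCR, the antisense RNA URB1-AS1 at 2.44 and the divergent transcript RNASEH1-DT at 2.01 were the highest of the class in the authors' deposited table. Small nucleolar RNA genes and microRNA loci lie mostly in the introns of other genes, and their mature RNAs carry no poly(A) tail. Of 95 small nucleolar RNA genes with an adjusted p 35 were called lower (36.8%) and none higher. Of 129 microRNA loci 35 were lower (27.1%) and none higher. Among all tested genes 31.4% were lower and 24.7% higher. No gene of either class had a base mean of at least 100, and calls were more frequent at that level. The background over all tested genes is thus unlike these classes in read level.

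The table holds no values per library, but the reads of each library could be recovered for genes of low level. For 4469 of 4484 genes with a base mean of 10 to 100 exactly 1 set of 6 whole read numbers gave the deposited base mean. From a base mean of 30 up only sets within 0.5 (log2) of the deposited fold change, its shrinkage toward 0 undone, were searched. For these genes, ICAM4 to POLR2J3 below among them, the set is unique only within that window. The 3 libraries of a group are named a, b and c here, since the recovered reads carry no replicate number. In 1212 of the 4469 genes (27.1%) all 3 IP libraries lay above all inputs in normalised reads and in 1870 (41.8%) all lay below. Limma on log2(normalised reads + 1) called 1108 genes higher (24.8%) and 1825 lower (40.8%). Below a base mean of 30, where the deposited fold change played no part in the recovery, limma called 458 of 2248 genes higher and 852 lower, among them the 334 and 745 that the authors had called in the same direction. From 30 up the recovery used that fold change, and agreement of the calls there is no check.

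ICAM4, an adhesion molecule of red cells whose locus overlaps ICAM4-AS1, had 144, 103 and 112 reads in IP libraries a to c and 16, 13 and 8 in the inputs. After normalisation this was 119 ± 24 against 12 ± 2.87 reads (SD, n = 3 each), with an adjusted p of 4.21e-08 by limma. The genes with reads given here and in the next paragraph were picked for their deposited fold change. Their reads were searched only near that value with its shrinkage toward 0 undone. The gap between the groups and the p-value are therefore no separate test. FBXO6, which recognises glycoproteins for degradation, had 132, 88 and 110 reads against 17, 6 and 15. The pseudogene PSMC1P1 had 130, 95 and 115 against 15, 16 and 17, and its parent PSMC1 is itself high, so its reads may belong to the parent. All IP values of these 3 genes exceeded all inputs several-fold.

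At the low end RN7SL3, a further gene of the signal recognition particle RNA, had 1, 0 and 1 reads in IP and 151, 92 and 114 in input. The ratio of input to IP was 181, and its exact 95% interval for counting error alone ran from 49.7 to 1499. TBCE (ENSG00000284770), a tubulin folding factor whose locus overlaps B3GALNT2, had 3, 2 and 4 reads against 201, 210 and 148. POLR2J3, a copy of an RNA polymerase II subunit gene that overlaps a readthrough gene, had 3, 6 and 1 against 194, 159 and 176. The IP libraries of these 3 genes were near 0 and the inputs above 90 reads.

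Members of the lists that fell in this range showed the spread between libraries directly. EIF4A1 had 9, 27 and 11 reads in IP and 187, 161 and 127 in input, RPS10 had 16, 31 and 5 against 72, 108 and 70, and EGR1, an immediate-early transcription factor gene, had 58, 87 and 23 against 130, 135 and 110. In each of these IP library b was the highest and the groups did not overlap. MRPL2 had 197, 121 and 112 reads in IP and 47, 48 and 37 in input, and MRPL38, its neighbour in the same ribosomal subunit, had 33, 19 and 16 against 66, 82 and 64. TLN2, a talin, had 16, 13 and 9 against 199, 194 and 145. LINC-PINT, with 23, 22 and 9 reads in IP against 16, 40 and 35, overlapped between the groups.

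**Figure D5:**
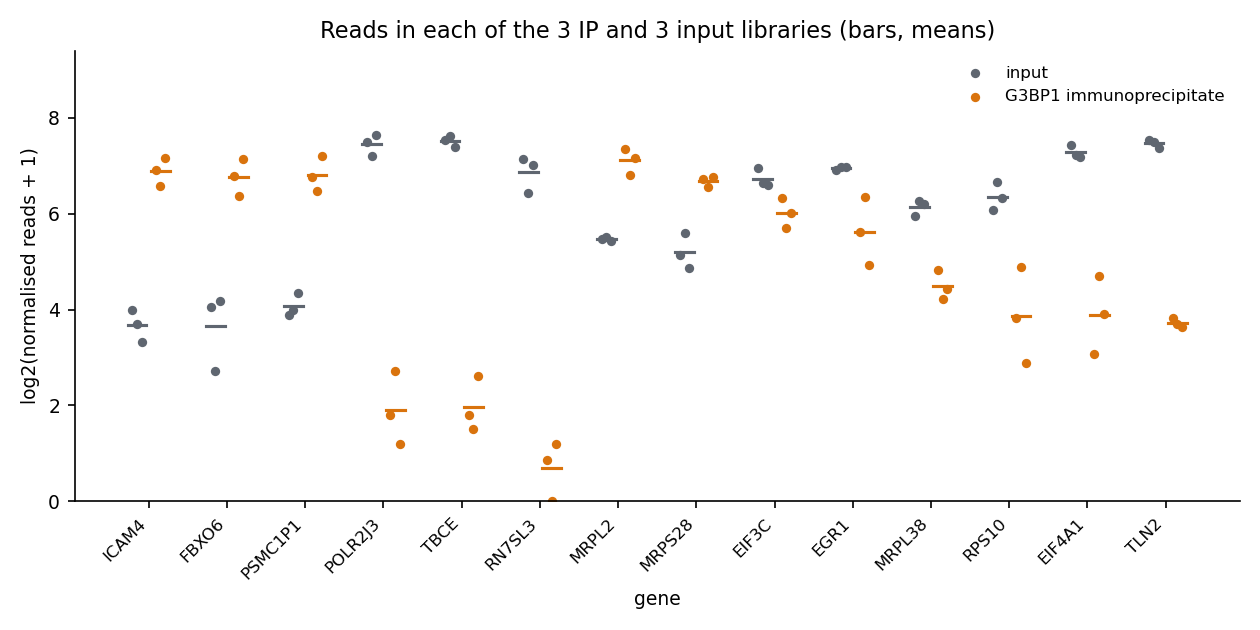
Log2(normalised reads + 1) in each of the 3 IP libraries (orange) and 3 input libraries (grey) for 14 genes with recovered reads, with bars at the group means. The 3 highest and 3 lowest genes come first, then list members, and in all 14 the groups do not overlap. The 14 are a selection, and other list members, LINC-PINT and FOS among them, did overlap. Of all 4469 genes with recovered reads, 27.1% had all IP libraries above all inputs and 41.8% had all below. From a base mean of 30 up, reads were searched only near the deposited fold change. For such genes, the 3 highest and 3 lowest among them, the gap is no separate test.

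The set of RNAs higher in IP was also followed in RNA-seq of U2OS cells, a human osteosarcoma line, from the same study, with 2 libraries per group and no library in common with RIP-seq. The groups were wild-type cells, G3BP1/2 knockout cells, and knockout cells transfected for 24 h with G3BP1, and in a further experiment knockout cells alone or transfected for 24 h with wild-type G3BP1 or with a mutant whose NTF2 domain is deleted, each with or without sodium arsenite at 200 uM for 2 h. Whether the knockout line is a single clone is not given in the sources used here. Genes were called higher in IP at a log2 fold change of at least 1 and lower at -1 or less, with an adjusted p under 0.05 and base means of at least 100 in both tables. The comparisons share groups with each other, and the difference between the sets was not tested.

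In knockout cells the RNAs higher in IP had a median near that of all genes. In knockout against wild type, 523 of 2255 genes higher in IP were called up and 737 down, beside a background of 27% up and 31.5% down among 9931 genes, and their median was -0.05 against -0.01 for all genes. The 2523 genes lower in IP had a median of -0.01. Against the G3BP1-transfected cells the medians of the sets were further apart. In knockout over rescue 1281 of 2252 genes higher in IP were called down and 217 up, beside 38.5% and 20.1% of all genes, with a median of -0.27 against -0.10. The 2514 genes lower in IP had 621 called down and 851 up and a median of 0.04. In wild type over the same rescue 1137 of 2259 genes higher in IP were called down and 230 up (background 36% and 20.5%), with a median of -0.22, and the genes lower in IP were at 0.06. Both of these comparisons have the transfected cells as the reference. The labels give a transfection for the rescue cells only, and no mock-transfected U2OS group. Transfection and G3BP1 thus cannot be told apart in any comparison of rescue cells with knockout or wild-type cells. In the further experiment, wild-type rescue over knockout gave 992 of 2032 genes higher in IP called up and 331 down (background 43.5% and 21.3%), with a median of 0.32 against 0.21 for all genes and 0.07 for genes lower in IP.

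In cells without G3BP1/2 the genes called under arsenite were unevenly shared between the sets. There 74 of 2016 genes higher in IP were called up and 400 down, beside 10.9% and 15.5% of all 9193 genes, and 518 of 2412 genes lower in IP were called up and 237 down. The medians were -0.13 and 0.13. With wild-type G3BP1 restored, 88 of 2086 genes higher in IP were called up (4.22%) and 300 down (14.4%). The background there was 10.3% and 14.6%. Of 2362 genes lower in IP 333 were called up and 350 down, and the medians of the sets were -0.02 and 0.04. With the NTF2 deletion mutant 23 of 2052 genes higher in IP were called up and 99 down (background 2.61% and 6.55%). Of 2339 genes lower in IP 94 were called up and 203 down, and the medians of the sets were -0.004 and 0.02. Across genes, Spearman's rho with the RIP fold change was -0.34 for arsenite in knockout cells (9193 genes), -0.31 for knockout over rescue (9908 genes), -0.32 for wild type over the same rescue and -0.02 for knockout over wild type. It was 0.16 for wild-type rescue over knockout, 0.20 for the NTF2 deletion mutant over knockout, -0.14 for arsenite with wild-type rescue and -0.08 for arsenite with the mutant. Locus length, with which the RIP fold change goes, had rho of 0.17 with the arsenite change in knockout cells and 0.17 with knockout over rescue, and its part in these values was not tested.

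The genes called in both assays with the largest changes in knockout cells went in both directions. Among those higher in IP, CAMK1, a calcium-dependent kinase gene, was at -5.73, NSG1, a gene of neuronal endosomes, at -5.40, GSTM3, a glutathione transferase gene, at -5.28, SLC25A20, the mitochondrial carnitine carrier gene, at -4.96 and SULT1A1, a sulfotransferase gene, at 5.06 in knockout over wild type in the authors' deposited table. Among those lower in IP, ZEB2, a repressor of epithelial genes, was at 7.34, ZNF300 at 7.05, the cadherin gene CELSR1 at 6.69 and NALF2 at 5.72, and TRAF3, a signalling adaptor, was at -5.51 in the authors' deposited table.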

How the data were processed

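RNA-seq reads of 3 immunoprecipitate and 3 input libraries were aligned with STAR 2.7.0f and compared with DESeq2 2.11.40.6, per the submitters' processing notes. The U2OS tables hold the same kinds of value. Poly(A) selection and a strand-preserving kit were used in all libraries, per the labels' protocols. The genome build, the annotation and the strand setting of the counting are not given in the sources used here. The deposited base mean is a signal, the mean over all 6 libraries of reads divided by size factors. The deposited log2 fold change, IP over input, is shrunk toward 0 by a normal prior and has a standard error on the same scale. The ratio of both is the authors' Wald score, from which the authors' p-value and adjusted p-value follow.

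An adjusted p under 0.05 made a call. Mean normalised reads in IP and input were computed from the base mean and the fold change with the prior (SD 1.85 on the log2 scale) undone. Reads per library were recovered as the whole numbers that give the base mean. From a base mean of 30 up only numbers within 0.5 (log2) of the fold change with the prior undone were searched. Below 30, where no such window was set, the median absolute difference from the fold change with the prior undone was 0.0183 (log2) over 2231 genes. The SD of the prior was itself fitted to recovered reads of this range, so the small difference is no separate check. The recovered reads were tested with limma 3.58.1 (R 4.3.3) on log2(normalised reads + 1), with Benjamini-Hochberg adjustment. Libraries of a group differed by more than read sampling, with a mean squared standardised difference of 1.67 to 2.6 where sampling gives about 1. Python 3.11.15 was used. The recovery of reads and the limma step were tested on simulated data.

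Of the IDs 61369 were in the name table used for symbols, and locus lengths and start sequences from RefSeq (GRCh38.p14) by symbol. Genes with several listed starts were left out of the start comparison. Protein lengths were not used here. The lists, members and tests were chosen with earlier results of these data known. Named genes were G3BP1 and G3BP2, the 10 highest and 10 lowest called genes of base mean 100 or more, the 2 highest and 2 lowest of each list at that base mean, every member of lists of up to 13 genes, stress granule, translation factor and ribosomal protein genes by role, the 3 highest and 3 lowest genes with recovered reads at base mean 30 or more, and 5 genes of each direction in U2OS. Others were named after their values were seen, subunits of complexes among them. A noncoding RNA of the X chromosome was left out of these rules, and a few list members that they would name are not reported here. Alternatives were centring, other filters, a size limit, the prior undone, limma and leaving out each library.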

Additional observations from a re-analysis of the deposited data

Results flagged for a closer look

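A signal stood in the summary lines of the read counter, which enter no comparison of genes. Reads that the counter could not assign to 1 gene averaged 0.979 M (mega) normalised reads per library in IP and 0.574 M in input, above the input level by 0.77 on the log2 scale (SE 0.09, adjusted p 4.06e-18, from the authors' deposited table). Unmapped reads, at 0.09 (adjusted p 0.57), and reads with several map positions, at 0.02 (adjusted p 0.883), were not called in the authors' deposited table. Groups of 3 libraries were not searched for single outlying libraries.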

How the results depend on the processing

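The authors' calls of 5639 genes higher and 7184 lower stayed within 1.5 times under centring, without a filter and with a base mean of at least 10. A size limit of 1 left 3189 higher, and 3234 with the prior undone. A base mean of at least 100 left 4028 lower, with fewer genes tested. Over the 4469 genes with recovered reads, where the authors called 912 higher and 1636 lower, limma without each library in turn called 938 to 1079 higher and 1647 to 1802 lower. No paired analysis was possible because the recovered reads carry no replicate number. Centring lowers every list median by 0.12, and gave -0.80 for stress granule proteins, 1.12 for cytosolic ribosomal proteins and 0.80 for replacement histones, where this exceeds the members' median standard error. With members of base mean of at least 100 the medians were 0.74 for translation factors, 0.95 for replication-dependent histones (4 members, from -0.27), -0.13 for cytoplasmic noncoding RNAs, 0.46 for mitotic genes (from 0.16) and -3.14 for cadherins. With the prior undone that of polymerase III RNAs was -6.70. In U2OS, centring gave -0.17 and 0.14 for genes higher and lower in IP in knockout over rescue, 0.15 for lower genes in wild type over rescue, and 0.11 and -0.14 in wild-type rescue over knockout. With a base mean of at least 10 the locus medians were 1.10 up to 2 kb, -1.25 at 200 to 500 kb and -1.44 over 500 kb. Apart from centring, which shifts by construction, the cause of these shifts was not tested. Of 391 named genes none reversed, 12 lost and 8 gained a call on centring, and 4 lost it without a filter. Medians by protein length were not run, since the length of the locus was used in its place, chosen after seeing the data. Genes at base means under 100 carry wide errors, and 12561 of the tested genes lie there.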
